A study of Homo sapiens with 12 samples.

Results

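The genes described here are 40 lysosome and autophagy genes, measured in HaCaT cells, an immortalized line of human keratinocytes that is widely used as a stand-in for the epidermis. They were chosen by symbol: 23 code for lysosomal proteins or for TFEB, and 17 for the proteins that build autophagosomes or load them. The deposited table held 45372 rows, and all 40 genes were among the 12878 with enough counts to be tested. Irradiated cultures received 50 J/cm2 of 408 nm blue light from an LED at each session, 3 sessions a week, and control cultures were kept in the dark. The groups are blue_3 and dark_3, blue_14 and dark_14, and blue_42 and dark_42, where the number counts irradiations, or for dark cultures those of the matched irradiated culture. Each of the 6 groups had 2 libraries, a and b, all from wild-type HaCaT cells, a single line, grown in serum-containing medium. Cells were irradiated in buffer and passaged every few days, and per the labels the dose was set to give 50% cell death. How dark cultures were handled during a session is not stated. The labels do not say whether a and b came from different cultures. Each p-value therefore reflects only how far these libraries spread, which may be technical.

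Lysosomes are acidic organelles in which cathepsins, glycosidases and lipid-handling proteins break down what is delivered to them. Macroautophagy encloses cytoplasm in a double membrane: the ULK1 kinase starts the process, the lipid kinase complex that holds BECN1 and UVRAG marks the site, and WIPI1 binds that mark. ATG7, ATG3 and the ATG12, ATG5 and ATG16L1 proteins attach ATG8-family proteins to the membrane. The receptors SQSTM1 (p62), NBR1, OPTN and TAX1BP1 tie ubiquitin-marked cargo to the ATG8 proteins and are themselves degraded. TFEB is a transcription factor that binds E-box sequences in lysosomal and autophagy promoters. Violet and blue light excites porphyrins, flavins and lipofuscin, and oxidative damage to lysosomes is well known in light-exposed skin and retinal cells. RNA levels do not measure autophagic flux or lysosomal activity.

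The TFEB binding element, known as the CLEAR element, has the E-box CACGTG as its core. A longer form is TCACGTGA, and the full element has a further G before and C after it. RefSeq promoters of GRCh38.p14, from 250 bases before to 50 after the annotated start, were found for 34 of the 40 genes. They gave 43 windows because some genes have several starts. No window was found for PSAP, CTSB, HEXA, LAMP2, ATP6V1H or UVRAG, which are left out of the motif counts and of the medians by motif. PSAP, CTSB and HEXA were among the genes called between dark stages. The core stood in 8 of the 43 windows (18.6%), against 7.26% of all 35116 promoter windows. The form TCACGTGA stood in 6 of 43 (14%), against 0.98%, and the full element in 2 of 43 (4.65%, GAA and MCOLN1), against 0.353%. Each motif is its own reverse complement, so both strands are covered, and each longer form contains the shorter. Of the genes with a window, the core was found in 7 of 18 lysosomal genes and in 1 of 16 autophagy genes, ATG3. It was not in the windows of the receptors, of which there were 3 for SQSTM1 and 2 each for OPTN, NBR1 and TAX1BP1. A match describes letters and is not evidence of binding.

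The stretches shown here run from 200 bases before to 10 after the start, 5′ to 3′ on the + strand, and capitals mark the longest of the 3 forms at each core. The first 4 show how the element is placed in lysosomal promoters. LAMP1 lies at chr13:113297039-113297248, CTSA at chr20:45891135-45891344, GAA at chr17:80101381-80101590 and MCOLN1 at chr19:7522424-7522633. SQSTM1 at chr5:179820705-179820914 and OPTN at chr10:13099963-13100172 are shown as windows without the core, because both genes rose between culture stages in dark and in irradiated cells.
LAMP1: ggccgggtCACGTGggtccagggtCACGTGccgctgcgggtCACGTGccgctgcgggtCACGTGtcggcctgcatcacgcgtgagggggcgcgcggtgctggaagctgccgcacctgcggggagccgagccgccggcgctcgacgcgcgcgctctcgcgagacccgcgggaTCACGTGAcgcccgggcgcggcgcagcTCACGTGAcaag
CTSA: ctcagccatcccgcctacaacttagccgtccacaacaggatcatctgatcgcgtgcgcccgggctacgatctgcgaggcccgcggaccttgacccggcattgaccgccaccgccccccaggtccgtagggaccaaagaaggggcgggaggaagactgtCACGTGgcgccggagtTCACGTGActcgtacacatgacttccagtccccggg
GAA: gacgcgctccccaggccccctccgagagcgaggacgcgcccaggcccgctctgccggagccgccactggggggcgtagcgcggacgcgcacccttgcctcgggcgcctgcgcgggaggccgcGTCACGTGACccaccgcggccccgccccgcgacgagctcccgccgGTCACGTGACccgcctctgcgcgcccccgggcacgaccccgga
MCOLN1: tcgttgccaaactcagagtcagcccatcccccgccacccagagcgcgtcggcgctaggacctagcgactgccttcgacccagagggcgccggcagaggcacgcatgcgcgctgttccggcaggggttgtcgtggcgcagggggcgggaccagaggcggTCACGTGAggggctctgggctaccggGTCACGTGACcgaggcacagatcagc
SQSTM1: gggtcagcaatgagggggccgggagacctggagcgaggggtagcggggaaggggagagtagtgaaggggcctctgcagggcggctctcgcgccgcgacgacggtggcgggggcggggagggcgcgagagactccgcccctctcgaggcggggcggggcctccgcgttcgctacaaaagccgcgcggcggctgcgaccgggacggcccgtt
OPTN: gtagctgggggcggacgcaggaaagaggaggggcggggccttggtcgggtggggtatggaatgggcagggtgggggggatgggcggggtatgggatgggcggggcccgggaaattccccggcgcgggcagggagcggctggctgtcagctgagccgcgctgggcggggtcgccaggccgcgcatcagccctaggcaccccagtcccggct

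LAMP1 held 6 cores, 2 of them in the form TCACGTGA, and GAA held the full element at 2 positions. In no comparison did all genes with the core lie on the same side of 0. Between dark_42 and dark_3 the median log2 difference was -0.02 over the 8 genes with a core (from -1.03 to 0.66) and 0.25 over the 26 without (from -0.41 to 0.93). That was the widest gap of any comparison, and the order varied. Medians with and without the core were 0.196 and 0.203 in dark_14 against dark_3, and -0.216 and -0.042 in dark_42 against dark_14. Between blue and dark they were 0.138 and 0.034 at 3 irradiations, 0.014 and 0.022 at 14, and 0.018 and -0.103 at 42.

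Library totals ran from 2073160 counts in blue_14 b to 8183941 in blue_42 b, so that 3 counts correspond to 1.43 CPM in blue_14 b and 0.364 CPM in the deepest library. CPM is the usual depth-scaled count, computed here on TMM-scaled library totals. All 12 keratinocyte markers were detected in every group, with a summed level of 4300 to 7000 CPM. Macrophage and leukocyte markers, whose cells are rich in lysosomal RNA, summed to 1.27 to 6.2 CPM, with PTPRC at most at 0.765 CPM. The melanocyte markers MLANA, TYR and TYRP1 were at 0. Fibroblast markers summed to 4.27 to 15.2 CPM and neuronal markers to 59.4 to 238 CPM.

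The 40 genes differed widely in level, from CTSD, the aspartic protease cathepsin D, to MCOLN1, a lysosomal calcium channel. Because the library chemistry gives about 1 tag per transcript, levels can be set beside each other without scaling by length. CTSD had 886 to 1170 CPM over the 12 libraries (median 998 CPM). Next came the receptors TAX1BP1 (469 to 666 CPM) and SQSTM1 (391 to 658 CPM), then PSAP, the precursor of the saposins, at 344 to 713 CPM, and CTSB at 255 to 600 CPM. The ranges of TAX1BP1, SQSTM1 and PSAP overlapped, so their order is not fixed by these data. NPC2, LAMP1 and CTSH averaged 315, 308 and 297 CPM and also overlapped. At the low end were GABARAP (3.15 to 6.23 CPM), WIPI1 (0.861 to 3.88 CPM) and MCOLN1 (0 to 2.29 CPM). For these 3 another gene lies over the last 500 bases where tags fall (AC120057.2 for GABARAP, ARSG and AC007780.1 for WIPI1, PNPLA6 and AC008878.2 for MCOLN1), and the counting strand is not stated. Another gene covers the 3′ end of 14 of the 40 genes in all, on the same strand for 5, which include CTSD, HEXA and TPP1. On the other strand, MRNIP covers the 3′ end of the receptor gene SQSTM1, and JAZF1 that of TAX1BP1. MAP1LC3B and GABARAPL1 have near-identical copies elsewhere in the genome (MAP1LC3B2 and GABARAPL3), so their counts are also uncertain.

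**Figure D1:**
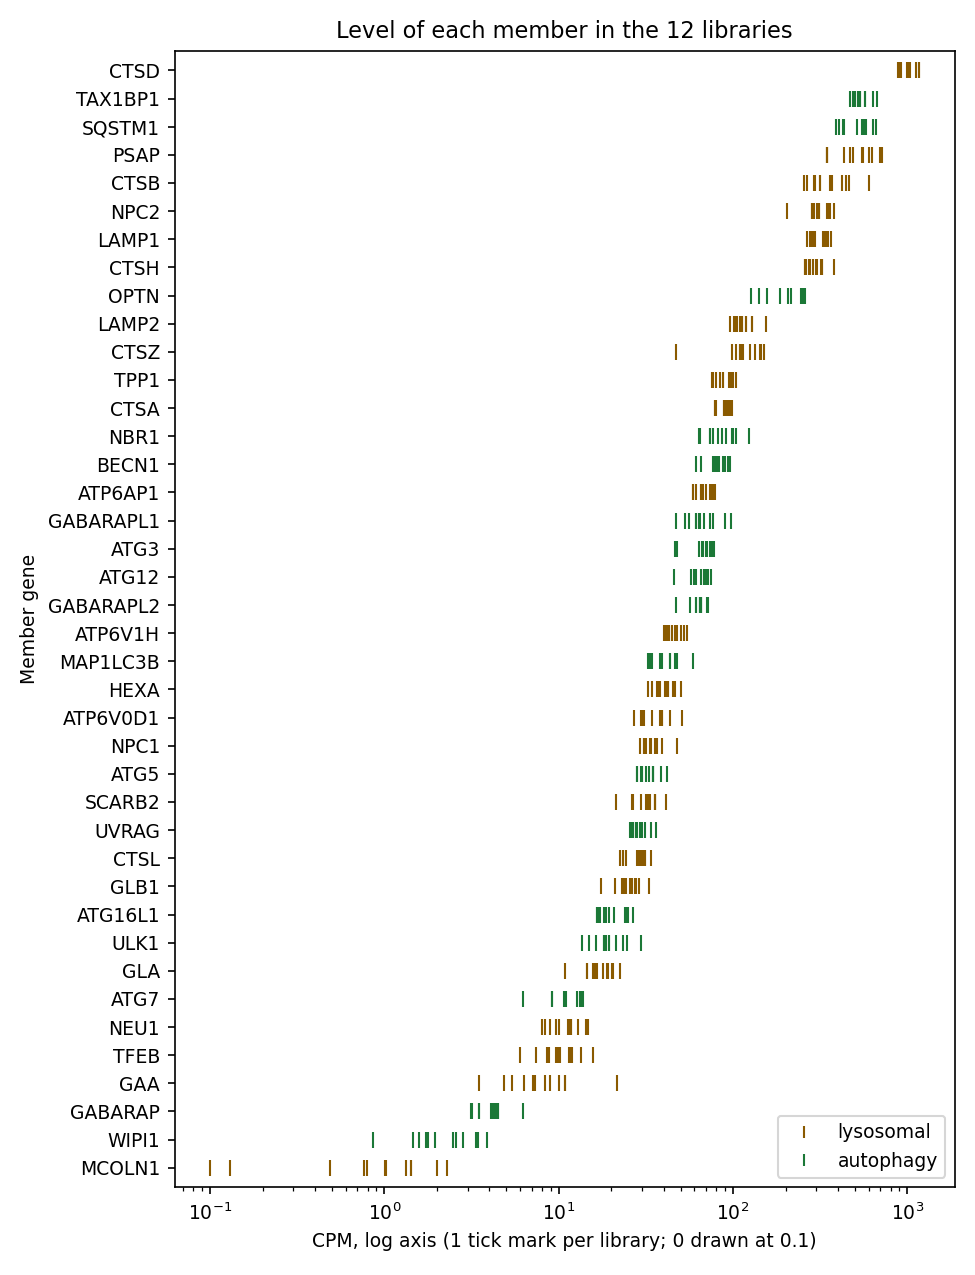
Level in CPM (log axis) of each of the 40 genes, with 1 mark per library and lysosomal and autophagy genes in separate colours. CTSD is highest in the plot and MCOLN1, with a library at 0, is lowest.

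Blue light against dark was the comparison the study was built for. After 3 irradiations none of the 40 genes passed edgeR's test at an adjusted p under 0.05, beside 0.0155% of all tested genes. At an unadjusted p under 0.05 there were 6, DESeq2 called 0, and the smallest adjusted p was 0.487. The 2 genes called in the whole table were the neuronal markers CELF4 and SYT1, and the neuronal sum was 204 and 238 CPM in blue_3, against 172 and 176 CPM in dark_3. Of the 23 lysosomal genes, 17 lay above 0, with a median log2 difference of 0.16. Of the 17 autophagy genes, 8 did, with a median of -0.004, and over all tested genes 52.4% lay above 0 with a median of 0.01. Without blue_3 a the lysosomal median was 0.045 and the autophagy median 0.071. In bulk RNA, fewer cells with a transcript and less of it per cell cannot be told apart.

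TFEB had 9.92 and 13.4 CPM in blue_3 libraries, against 6.02 and 8.77 CPM in dark_3 libraries, a log2 difference of 0.64 ± 0.26 (SE, adjusted p = 0.637). Its groups did not overlap, but both sets of libraries spread widely. OPTN had 156 and 185 CPM in blue_3, against 126 and 140 CPM in dark_3, a difference of 0.36 ± 0.13 (adjusted p = 0.536). ATP6V1H, a subunit of the proton pump that acidifies lysosomes, had 41.9 and 40.4 CPM in blue_3, against 54.1 and 52.2 CPM in dark_3. That is a difference of -0.37 ± 0.12 (adjusted p = 0.487), with no overlap. ATG16L1, which places the conjugation complex on the membrane, had 19.3 and 18.3 CPM in blue_3, against 26.6 and 24.7 CPM in dark_3 (-0.45 ± 0.17, adjusted p = 0.592). CTSZ (0.36 ± 0.35) and ATG7 (-0.27 ± 0.21) differed by little more than their errors.

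After 14 irradiations none of the 40 genes was called, as for 0% of all tested genes. There were 4 at an unadjusted p under 0.05 and 0 by DESeq2, and the smallest adjusted p was 0.787. MAP1LC3B, the LC3B protein used as the standard marker of autophagosomes, had 43.6 and 59.1 CPM in blue_14, against 38.6 and 38.9 CPM in dark_14 (0.38 ± 0.16, adjusted p = 0.802). The irradiated libraries were both above the dark ones and lay far apart from each other. CTSL, a cysteine protease, had 31.3 and 33.9 CPM in blue_14, against 23.4 and 22.5 CPM in dark_14 (0.50 ± 0.18, adjusted p = 0.787). ULK1 had 24.7 and 29.6 CPM in blue_14, against 23.4 and 19.4 CPM in dark_14 (0.35 ± 0.18, adjusted p = 0.837). ATG12 differed by -0.33 ± 0.15 (adjusted p = 0.835).

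The 14-irradiation values rest in part on blue_14 b, the library with the fewest counts. CTSZ, a carboxypeptidase, had 125 CPM in blue_14 a and 47.2 CPM in blue_14 b, against 134 and 143 CPM in dark_14, a difference of -0.63 ± 0.37 (adjusted p = 0.873). The library b value was the lowest of all 12. Without blue_14 a, so with b alone standing for its group, CTSZ was called at -1.56 (adjusted p = 0.015). GAA, the lysosomal α-glucosidase, had 8.90 and 21.5 CPM in blue_14, against 10.9 and 10.1 CPM in dark_14 (0.45 ± 0.43). Its difference was -0.22 without blue_14 b. NPC2, a cholesterol carrier, had 378 CPM in blue_14 a and 204 CPM in blue_14 b, against 313 and 291 CPM in dark_14.

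After 42 irradiations none of the 40 was called by edgeR, beside 1.23% of all tested genes. There were 6 at an unadjusted p under 0.05, DESeq2 called 0, and the smallest adjusted p was 0.113. All 4 receptors lay below 0, between -0.35 and -0.04, as did 12 of the 17 autophagy genes, whose median was -0.12. Of the lysosomal genes 16 of 23 lay above 0, with a median of 0.03, beside a median of -0.003 and 49.5% over all tested genes. The autophagy median was -0.055 without blue_42 a, and the lysosomal median 0.123 without dark_42 b. TAX1BP1 had 486 and 532 CPM in blue_42, against 666 and 634 CPM in dark_42 (-0.35 ± 0.11, adjusted p = 0.113). The libraries of blue_42 were all below those of dark_42. CTSB, a cysteine protease that leaks from damaged lysosomes, had 368 and 446 CPM in blue_42, against 295 and 293 CPM in dark_42 (0.47 ± 0.15, adjusted p = 0.136). CTSB passed without blue_14 b (adjusted p = 0.0473), without all 14-irradiation libraries (adjusted p = 0.0253) and with no filter on low counts (adjusted p = 0.00993), with a difference of 0.47 in each. ULK1 had 21.3 and 19.4 CPM in blue_42, against 13.6 and 14.9 CPM in dark_42 (0.51 ± 0.16, adjusted p = 0.121), again with no overlap. BECN1 had 79.8 and 76.9 CPM in blue_42, against 65.7 and 61.6 CPM in dark_42 (0.30 ± 0.11, adjusted p = 0.221). ATG5 differed by -0.32 ± 0.13 (adjusted p = 0.26) and TFEB by -0.46 ± 0.24 (adjusted p = 0.425, -0.27 without blue_42 b). ATP6V0D1, a subunit of the proton pump, had 43.3 and 29.8 CPM in blue_42, against 27.1 and 29.9 CPM in dark_42, with overlapping groups. Its difference was 0.36 ± 0.20 (adjusted p = 0.478), and 0.06 without blue_42 a. Of the 12 keratinocyte markers 1, SFN, rose in the same comparison, and their sum was 5690 and 5260 CPM in blue_42, against 4820 and 4300 CPM in dark_42. Their part in these values was not tested.

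**Figure D2:**
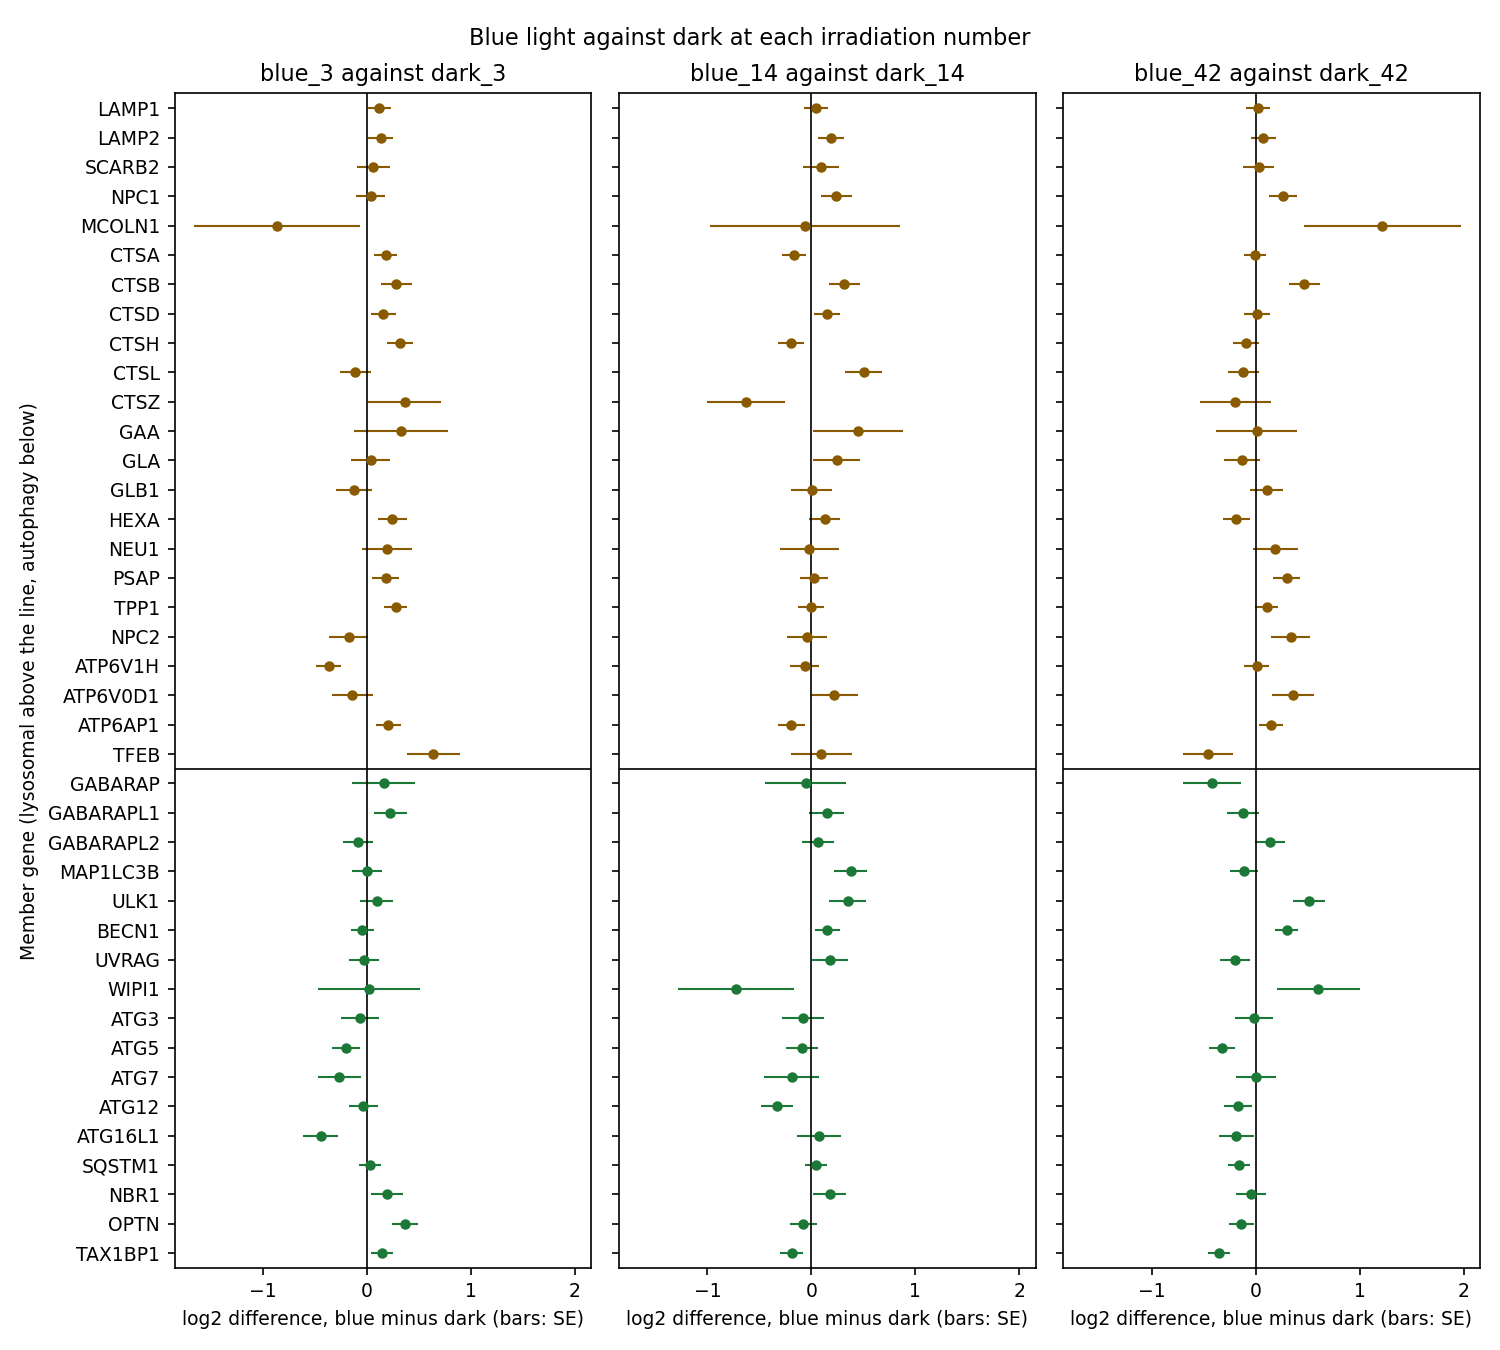
log2 difference of blue minus dark for each of the 40 genes after 3, 14 and 42 irradiations, with standard errors as bars. After 42 irradiations the bars of CTSB and ULK1 lie to the right of 0 and that of TAX1BP1 to the left, and none of these differences passed the test.

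The light effects at different irradiation numbers were then set against each other. None of the 40 genes was called in any of the 3 differences. The share of all tested genes called was 0.435% for 42 against 3, 0.0544% for 42 against 14 and 0.0388% for 14 against 3. At an unadjusted p under 0.05 there were 7, 2 and 6 of the 40, and DESeq2 called 0 in each. Among genes averaging at least 10 CPM, TFEB differed most between 42 and 3, by -1.10 ± 0.35 (adjusted p = 0.21), and its irradiated libraries lay above the dark ones at 3 and below them at 42. TAX1BP1 differed by -0.49 ± 0.15 (adjusted p = 0.193) and OPTN by -0.50 ± 0.18 (adjusted p = 0.278). Averaged over the 3 irradiation numbers, edgeR called none of the 40 genes, beside 0.0699% of all. At an unadjusted p under 0.05 there were 7, and DESeq2 called 1, CTSB. CTSB averaged 0.36 ± 0.09 above dark (adjusted p = 0.167), with the 2 groups apart at 3 and at 42 and overlapping at 14. It was also called without blue_14 a (0.43, adjusted p = 0.019). ULK1 averaged 0.32 ± 0.10 (adjusted p = 0.329). The 2 were picked for this average after their values were seen. Of the 23 lysosomal genes 20 averaged above 0 (median 0.09), as did 7 of the 17 autophagy genes (median -0.03) and 51.3% of all tested genes. The lysosomal median lay between 0.043 and 0.107 when single libraries were left out. The autophagy median lay between -0.047 and 0.055, with its sign turned without blue_14 a or dark_14 b.

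More of the 40 genes were called between culture stages than between light and dark, except in blue_42 against blue_14, where none was called. The same held over all tested genes, of which at most 1.23% were called between light and dark at any irradiation number. The order is therefore not particular to the 40 genes, and the share of all tested genes is given beside each count. Stages differ in time in culture, passages, harvest and perhaps library preparation, which cannot be told apart. The comparisons with dark_3 share those libraries, as do those with blue_3, so each is given on its own.

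In dark_14 against dark_3, 8 of the 40 genes rose, beside 8.11% of all tested genes, and 1 fell, beside 4.61%. The 4 lysosomal genes that rose were PSAP, CTSB, CTSH and TPP1, and the 4 autophagy genes were the receptors OPTN, NBR1 and SQSTM1 and the ATG8 protein GABARAPL1. ATG16L1 was the gene that fell. The median log2 difference was 0.27 over lysosomal genes, 0.04 over autophagy genes and 0.02 over all tested genes. The autophagy median lay between 0.003 and 0.14 when single libraries were left out, the lowest without blue_14 b and the highest without dark_3 b. DESeq2 called 6, without ATG16L1, CTSH and TPP1. OPTN and PSAP were called whichever library was left out, and the count was 2 without dark_3 a, dark_3 b or dark_14 a. The other 7 calls were each lost without dark_3 a, dark_3 b or dark_14 a. ATG16L1 was also lost without dark_14 b, TPP1 without dark_14 b, blue_14 b, blue_42 a or blue_42 b, and CTSH without blue_3 a, blue_3 b, blue_14 b, blue_42 a or blue_42 b. Neuronal transcripts moved in the same comparison: 9 of 10 neuronal markers rose, although their sum was 152 and 176 CPM in dark_14, against 172 and 176 CPM in dark_3, with the most abundant, NEFL, at means of 76.6 and 146 CPM. The 3 fibroblast markers tested also rose, with a sum of 14.6 and 15.2 CPM in dark_14, against 4.27 and 5.03 CPM in dark_3. Of the keratinocyte markers, KRT6A fell from a mean of 703 CPM in dark_3 to 330 CPM in dark_14 (adjusted p = 0.0193). ITGB4 rose from 158 to 226 CPM (adjusted p = 0.024). The part of all these markers in the result was not tested.

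In dark_42 against dark_3, again 8 rose, beside 9.47% of all tested genes, and 1 fell, beside 8.26%. All 4 receptors rose, with the ATG8 genes MAP1LC3B and GABARAPL1 and the lysosomal genes PSAP and HEXA, while BECN1 fell. The median was 0.31 over autophagy genes, 0.16 over lysosomal genes and 0.02 over all tested genes. Without dark_42 b these medians were 0.165 over autophagy genes and 0.015 over lysosomal genes, and the autophagy median was 0.179 with a filter at 5 CPM. DESeq2 called 6, without MAP1LC3B, GABARAPL1 and HEXA. OPTN and SQSTM1 were called whichever library was left out. The count was 2 without dark_3 a or dark_42 b and 3 without dark_3 b, and the other 7 calls were each lost in these 3 fits. TAX1BP1 was also lost without dark_42 a, and HEXA without dark_42 a, blue_42 a or blue_42 b. Keratinocyte markers summed to 4820 and 4300 CPM in dark_42, against 6140 and 6180 CPM in dark_3, and 4 of the 12, KRT5, KRT14, SFN and PERP, fell. Of the neuronal markers, 2 of 10 fell, with a sum of 99.2 and 59.4 CPM in dark_42. Their part in the result was not tested.

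In dark_42 against dark_14, GLA rose, beside 1.81% of all tested genes, and BECN1 and ULK1 fell, beside 5.23%. DESeq2 called none of the 3, and neither did a fit on these 4 libraries alone. Leaving out libraries changed the count to between 0 and 4, and each of the 3 calls was lost without dark_3 a, dark_3 b, dark_14 a, dark_42 a, dark_42 b, blue_42 a or blue_42 b. BECN1 and ULK1 were also lost without dark_14 b. In this comparison 8 of 10 neuronal markers fell, with a sum of 99.2 and 59.4 CPM in dark_42, against 152 and 176 CPM in dark_14. The fibroblast markers THY1 and DCN fell as well. So did the keratinocyte marker SFN, from a mean of 1440 CPM in dark_14 to 836 CPM in dark_42 (adjusted p = 0.000499). The part of these markers in the result was not tested.

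Irradiated cultures were compared between stages after the data had been seen. In blue_14 against blue_3, 5 of the 40 rose (PSAP, CTSB, MAP1LC3B, OPTN and SQSTM1), beside 3.62% of all tested genes, and none fell, beside 2.58%. The count was 0 without blue_3 b or blue_14 b, 1 without blue_3 a, 3 without dark_3 a or dark_3 b, 8 without dark_42 a or dark_42 b, and 11 without blue_14 a. SQSTM1 was lost without dark_3 a, dark_3 b or any library compared, OPTN without dark_3 a, dark_3 b, blue_3 a, blue_3 b or blue_14 b, and CTSB and MAP1LC3B without blue_3 a, blue_3 b or blue_14 b. PSAP was lost without blue_3 b or blue_14 b. DESeq2 called 6 in this comparison, NBR1 among them. The neuronal sum was 124 and 93.4 CPM in blue_14, against 204 and 238 CPM in blue_3, and 1 neuronal marker, MAP2, fell. The keratinocyte markers TP63 and PERP rose 1.82-fold and 1.33-fold. The part of these markers in the result was not tested. In blue_42 against blue_3, 3 rose (PSAP, SQSTM1 and OPTN), beside 4.4%, and none fell, beside 3.4%. The count was 0 without blue_42 b and 1 without blue_3 a or blue_3 b. OPTN was lost without dark_3 a, dark_3 b, blue_3 a, blue_3 b or blue_42 b, SQSTM1 without blue_3 a, blue_42 a or blue_42 b, and PSAP without blue_3 b or blue_42 b. DESeq2 called 2, without OPTN. In this comparison 8 of 10 neuronal markers fell, with a sum of 103 and 79 CPM in blue_42, against 204 and 238 CPM in blue_3. The fibroblast markers THY1 and DCN also fell, and the keratinocyte marker TP63 rose 1.4-fold. What these markers contributed was not tested. In blue_42 against blue_14, none of the 40 rose, beside 0.0854% of all, and none fell, beside 0.155%. At an unadjusted p under 0.05 there were 8, and DESeq2 called 0. Of the 9 genes called in dark_14 against dark_3, 8 had the same sign in blue_14 against blue_3 and 4 were called there. Over all genes called in the dark comparison these shares were 89.4% and 26.1%. For 42 irradiations it was 7 of 9 and 3, beside 88.5% and 27.3%. Over the 17 autophagy genes the 42 against 3 log2 differences of irradiated and dark cultures had a Pearson r of 0.45, and over the 23 lysosomal genes of -0.34. These values are across genes, which are not independent replicates, and describe these libraries. The lysosomal r includes MCOLN1, which lay farthest from 0 of these genes in both series. MCOLN1 was at -1.035 ± 0.80 in dark and 1.052 ± 0.76 in irradiated cultures, with 1 count in dark_42 b. The lysosomal r without MCOLN1 was not computed, so its sign is not read as a trait of these genes.

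**Figure D3:**
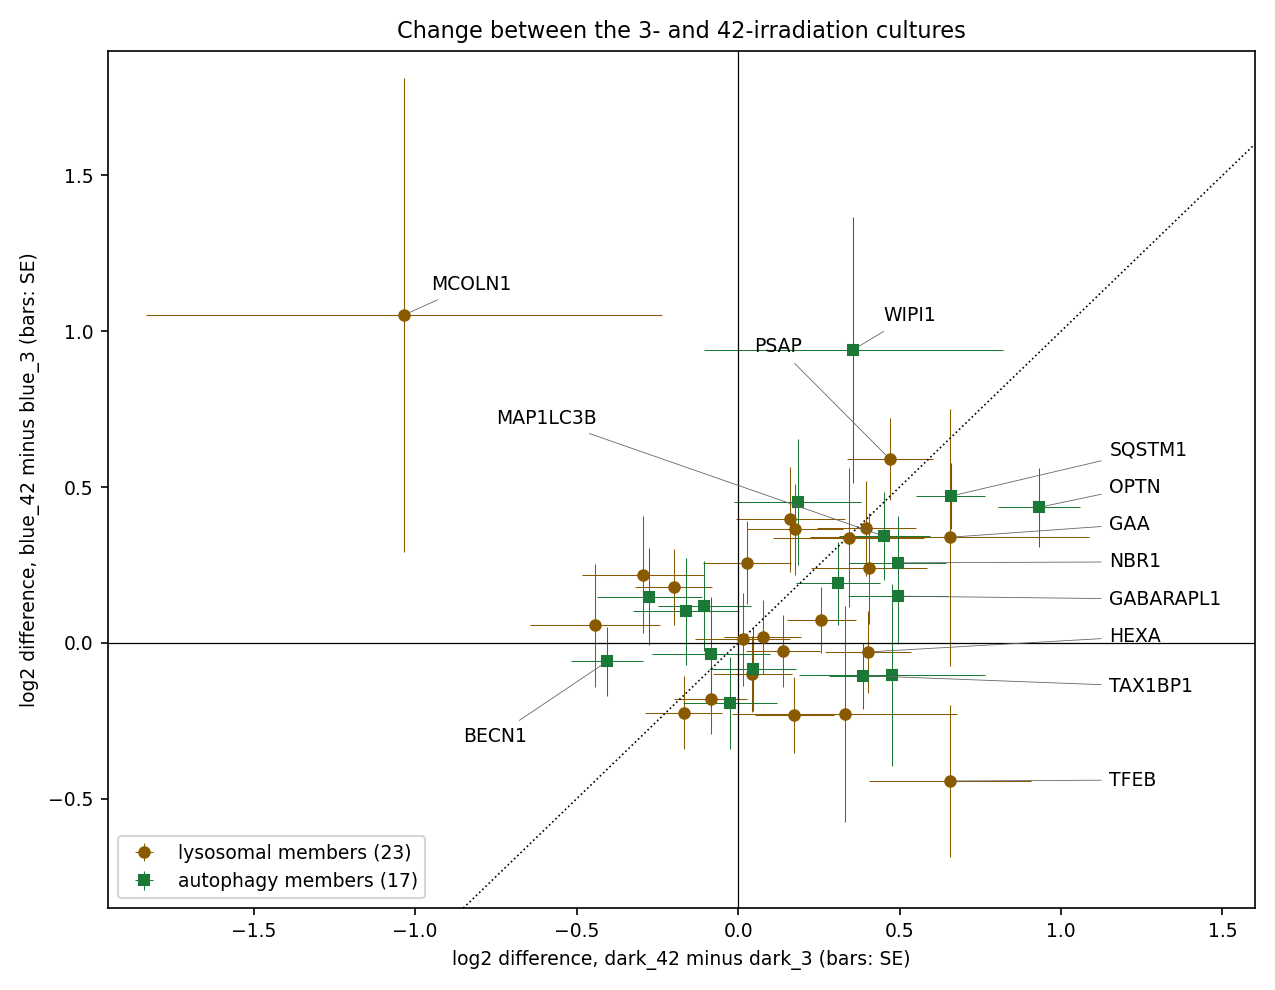
log2 difference of blue_42 minus blue_3 (vertical) against dark_42 minus dark_3 (horizontal) for each of the 40 genes, with standard errors as bars. SQSTM1, OPTN and PSAP lie above 0 on both axes, TAX1BP1 and TFEB only on the horizontal one, and MCOLN1 has the widest bars.

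Of the cargo receptors, SQSTM1 and OPTN were called in all 4 comparisons with the 3-irradiation groups, NBR1 in the 2 dark ones and TAX1BP1 in dark_42 alone. SQSTM1, which also anchors the KEAP1 stress pathway, had 403 and 430 CPM in blue_3 and 391 and 426 CPM in dark_3. It had 566 and 552 CPM in blue_14 and 572 and 514 CPM in dark_14, then 572 and 581 CPM in blue_42 and 658 and 632 CPM in dark_42. All 4 libraries at 3 irradiations were below all 8 later ones. SQSTM1 rose 1.33-fold in dark_14 over dark_3 (log2 0.41 ± 0.11, adjusted p = 0.0164) and 1.58-fold in dark_42 over dark_3 (0.66 ± 0.11, adjusted p = 0.000273). In irradiated cells it rose 1.34-fold in blue_14 (adjusted p = 0.0234) and 1.39-fold in blue_42 over blue_3 (adjusted p = 0.00888).

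OPTN, the receptor optineurin (chr10:13099449-13138308, + strand, GRCh38), had 156 and 185 CPM in blue_3 and 126 and 140 CPM in dark_3. It had 216 and 260 CPM in blue_14 and 255 and 245 CPM in dark_14, then 207 and 255 CPM in blue_42 and 251 and 256 CPM in dark_42. The dark_3 libraries were the lowest of the 12 and the blue_3 libraries next. OPTN rose 1.88-fold in dark_14 (log2 0.91 ± 0.13, adjusted p = 0.000148) and 1.91-fold in dark_42 over dark_3 (0.93 ± 0.13, adjusted p = 5.23e-05). The rise over blue_3 was 1.39-fold in blue_14 (adjusted p = 0.0344) and 1.35-fold in blue_42 (adjusted p = 0.0374), where the log2 difference was 0.28 without blue_42 b. The difference between the irradiated and the dark change at 42 was the -0.50 ± 0.18 given for the light effects, which did not pass.

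NBR1, a receptor that joins SQSTM1 on aggregates and peroxisomes, had 74.1 and 73.4 CPM in blue_3 and 64.9 and 64.1 CPM in dark_3. It had 91.5 and 124 CPM in blue_14 and 104 and 86.4 CPM in dark_14, then 77.2 and 98.9 CPM in blue_42 and 81.5 and 100 CPM in dark_42. Every later library was above the 4 at 3 irradiations. It rose 1.46-fold in dark_14 (0.55 ± 0.15, adjusted p = 0.0249) and 1.41-fold in dark_42 over dark_3 (0.49 ± 0.15, adjusted p = 0.0284). In blue_14 over blue_3 the difference was 0.53 ± 0.16 (adjusted p = 0.0505).

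TAX1BP1 followed another course. It had 524 and 571 CPM in blue_3 and 492 and 502 CPM in dark_3, 499 and 469 CPM in blue_14 and 535 and 569 CPM in dark_14, and 486 and 532 CPM in blue_42 and 666 and 634 CPM in dark_42. Only the dark_42 libraries stood above the rest, 1.31-fold over dark_3 (0.39 ± 0.11, adjusted p = 0.016). In blue_42 over blue_3 the difference was -0.10 ± 0.11 (adjusted p = 0.624).

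**Figure D4:**
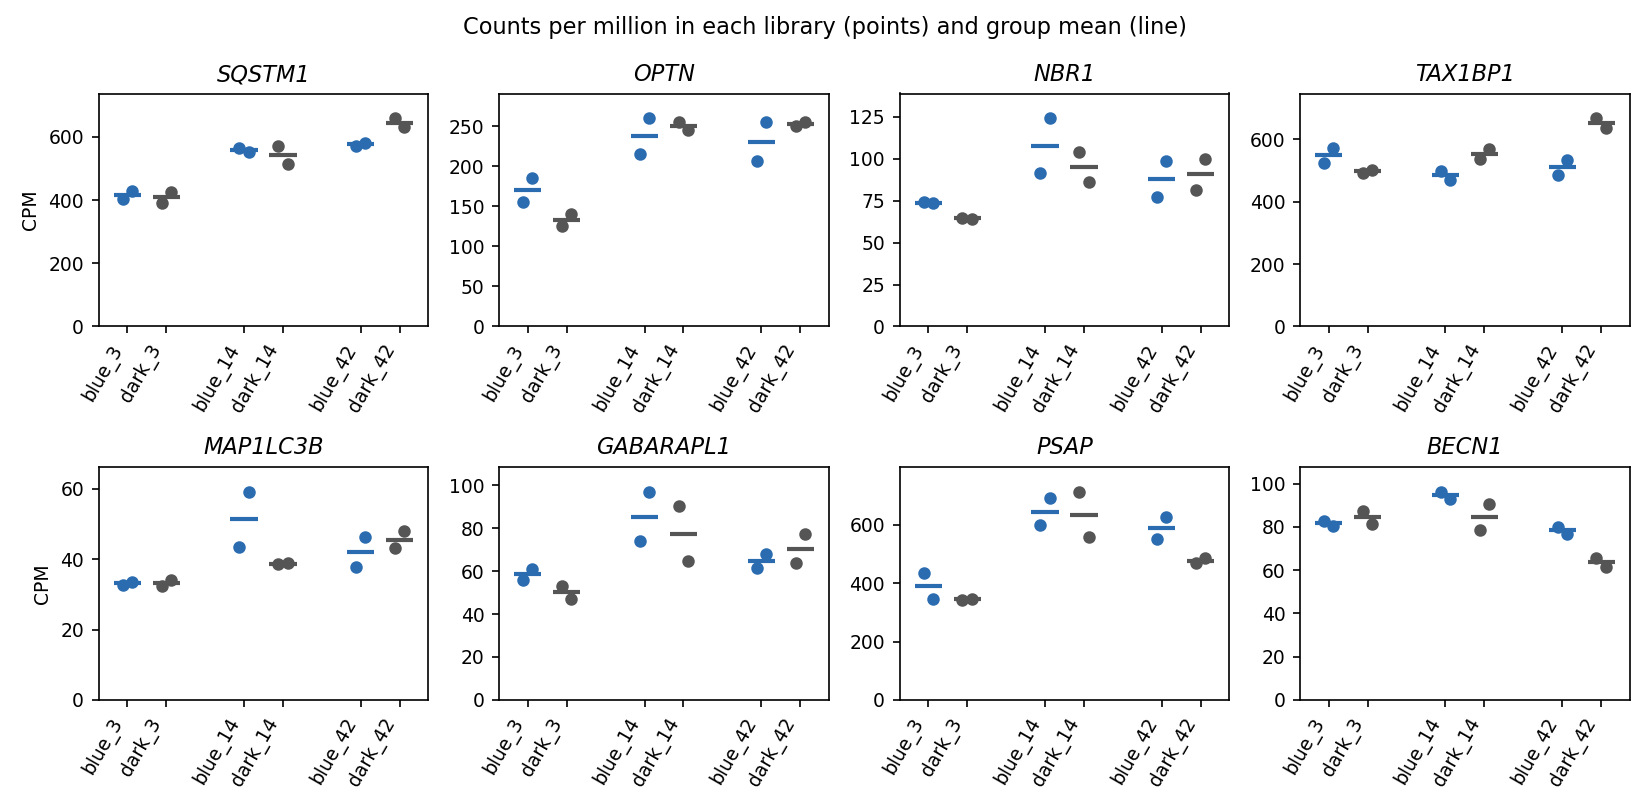
CPM of 8 genes in each library (points) with group means (lines), blue beside dark at 3, 14 and 42 irradiations. SQSTM1, OPTN, NBR1 and PSAP are lowest in the 3-irradiation groups, and BECN1 and TAX1BP1 set dark_42 apart.

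Among the ATG8 genes, GABARAPL1 had 55.8 and 61.1 CPM in blue_3 and 52.9 and 47.2 CPM in dark_3. It had 73.8 and 96.8 CPM in blue_14 and 90.1 and 64.7 CPM in dark_14, then 61.5 and 68 CPM in blue_42 and 63.8 and 77.1 CPM in dark_42. The 14-irradiation libraries spread most. It rose 1.52-fold in dark_14 (0.61 ± 0.16, adjusted p = 0.018; 0.35 without dark_14 a) and 1.41-fold in dark_42 over dark_3 (adjusted p = 0.0338). MAP1LC3B had 32.8 and 33.6 CPM in blue_3 and 32.3 and 34.2 CPM in dark_3, and the groups overlapped. In blue_42 it had 37.9 and 46.2 CPM and in dark_42 43.2 and 47.9 CPM. It rose 1.37-fold in dark_42 over dark_3 (0.45 ± 0.14, adjusted p = 0.0301) and 1.52-fold in blue_14 over blue_3 (0.60 ± 0.16, adjusted p = 0.0258; 0.38 without blue_14 b). DESeq2 called neither GABARAPL1 nor MAP1LC3B in dark_42 against dark_3. GABARAPL2 and GABARAP were called in no comparison.

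Of the 4 genes that start an autophagosome, BECN1 and ULK1 were called, each as lower in dark_42. BECN1 (chr17:42810134-42833350, - strand) had 82.7 and 80.5 CPM in blue_3 and 87.4 and 81.3 CPM in dark_3, then 96.1 and 93 CPM in blue_14 and 78.6 and 90.4 CPM in dark_14. The dark_42 libraries, at 65.7 and 61.6 CPM, were the lowest of the 12. BECN1 fell by 0.41 ± 0.11 on the log2 scale in dark_42 against dark_3 (adjusted p = 0.0166) and by 0.42 ± 0.11 against dark_14 (adjusted p = 0.0301). Another gene, CNTD1, overlaps its 3′ end on the other strand. ULK1 had 18.1 and 18.6 CPM in blue_3 and 16.3 and 18.1 CPM in dark_3, and its lowest libraries were those of dark_42. It fell by 0.56 ± 0.17 on the log2 scale in dark_42 against dark_14 (adjusted p = 0.0432). In blue_14 over blue_3 its difference was 0.54 ± 0.17 (adjusted p = 0.0658). WIPI1, at 1.45 and 1.94 CPM in blue_3 and 1.58 and 1.73 CPM in dark_3, had wide errors, as in blue_42 over blue_3 (0.94 ± 0.43, adjusted p = 0.198). UVRAG was called nowhere.

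Of the 5 conjugation genes, ATG16L1 alone was called in the main edgeR fit, and in 1 comparison. It had 18.7 and 16.7 CPM in blue_14 and 16.6 and 17.2 CPM in dark_14, then 24 and 16.5 CPM in blue_42 and 25.1 and 20.8 CPM in dark_42. The dark_14 libraries lay below both dark_3 libraries, and ATG16L1 fell by 0.60 ± 0.18 on the log2 scale (adjusted p = 0.0335). In that fit ATG3, ATG5, ATG7 and ATG12 stayed within 0.31 of 0 on the log2 scale in dark_14 and dark_42 against dark_3. None of them was called there.

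None of the 5 membrane proteins of the lysosome was called in any comparison in the main edgeR fit. LAMP1, which lines the inner face of the membrane, had 347 and 286 CPM in blue_3 and 286 and 297 CPM in dark_3. It had 335 and 364 CPM in blue_14 and 349 and 327 CPM in dark_14, and 281 and 277 CPM in blue_42 and 264 and 286 CPM in dark_42. The blue and dark libraries overlapped at each irradiation number. LAMP2, needed for fusion of autophagosomes with lysosomes, had 118 and 103 CPM in blue_3 and 106 and 95.5 CPM in dark_3. It had 113 and 110 CPM in blue_42 and 101 and 112 CPM in dark_42. Its highest values, 128 and 154 CPM in blue_14 and 128 and 118 CPM in dark_14, were not called over the 3-irradiation groups (adjusted p = 0.101 in blue and 0.129 in dark). SCARB2, the receptor that carries glucocerebrosidase to lysosomes, ran from 21.2 to 41.5 CPM, and NPC1, a cholesterol exporter, from 29.2 to 47.7 CPM. SCARB2 was 0.46 ± 0.17 above blue_3 in blue_14 (adjusted p = 0.116) and 0.40 ± 0.15 above dark_3 in dark_42 (adjusted p = 0.0787).

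Among cathepsins, CTSB had 316 and 317 CPM in blue_3 and 255 and 266 CPM in dark_3. It had 423 and 600 CPM in blue_14 and 462 and 359 CPM in dark_14. The 14-irradiation libraries were above all at 3. CTSB rose 1.61-fold in blue_14 over blue_3 (0.69 ± 0.15, adjusted p = 0.0123) and 1.57-fold in dark_14 over dark_3 (0.65 ± 0.15, adjusted p = 0.00859). The first difference was 0.41 without blue_14 b. In dark_42 over dark_3 the difference was 0.18 ± 0.15 (adjusted p = 0.444). CTSH, an aminopeptidase, had 380 and 301 CPM in dark_14 and 258 and 260 CPM in dark_3 (1.31-fold, adjusted p = 0.0421). Without dark_14 a its difference was 0.20 in place of 0.39 and was not called, and neither DESeq2 nor the block on the replicate letter called it. CTSD had 1010 and 1030 CPM in blue_3 and 911 and 913 CPM in dark_3, 1170 and 1120 CPM in blue_14 and 1160 and 908 CPM in dark_14, and 1010 and 886 CPM in blue_42 and 892 and 989 CPM in dark_42. No CTSD comparison was called, and its groups overlapped except at 3.

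PSAP (chr10:71816298-71851375, - strand) had 435 and 346 CPM in blue_3 and 344 and 347 CPM in dark_3. It had 600 and 692 CPM in blue_14 and 713 and 558 CPM in dark_14, and 551 and 626 CPM in blue_42 and 469 and 487 CPM in dark_42. All later libraries were above all at 3. PSAP rose 1.84-fold in dark_14 (0.88 ± 0.13, adjusted p = 0.000423) and 1.39-fold in dark_42 over dark_3 (adjusted p = 0.0188). The rise over blue_3 was 1.65-fold in blue_14 (adjusted p = 0.00427) and 1.51-fold in blue_42 (adjusted p = 0.00863). HEXA, a subunit of β-hexosaminidase, had 42.5 and 45.5 CPM in dark_42 and 34.2 and 32.4 CPM in dark_3 (1.32-fold, adjusted p = 0.0416). TPP1, a tripeptidyl peptidase, rose 1.29-fold in dark_14 over dark_3 (adjusted p = 0.0415), and was not called by DESeq2, with no filter on low counts or with the replicate letter as a block. GLA, the α-galactosidase, had 22.5 and 20.5 CPM in dark_42 and 10.9 and 15.8 CPM in dark_14 (1.54-fold, adjusted p = 0.0471), a log2 difference of 0.63 that was 0.98 without dark_14 b. GAA, GLB1, NEU1 and NPC2 were called nowhere in the main edgeR fit. With only the libraries compared, edgeR called NPC2 lower in dark_42 against dark_3 (log2 -0.30, adjusted p = 0.0388). The same setting called GAA higher in dark_14 against dark_3 (adjusted p = 0.0112), as did the fit with no filter on low counts (adjusted p = 0.00364).

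TFEB had 8.61 and 15.7 CPM in blue_14 and 11.7 and 10.2 CPM in dark_14, and 9.67 and 7.39 CPM in blue_42 and 11.5 and 11.9 CPM in dark_42. With about 10 CPM its standard errors were 0.24 to 0.29 in the 3 blue against dark comparisons. None of its differences passed in the main edgeR fit. The largest among the dark stages was 0.66 ± 0.25 in dark_42 over dark_3 (adjusted p = 0.0757). With no filter on low counts edgeR called that difference (adjusted p = 0.0493). The 3 genes of the proton pump, ATP6V1H, ATP6V0D1 and ATP6AP1, were called nowhere in the main edgeR fit. All lay below 0 in dark_42 against dark_3, between -0.44 and -0.17. There edgeR called ATP6V0D1 with no filter on low counts (adjusted p = 0.0186) and with only the libraries compared (adjusted p = 0.0262).

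**Figure D5:**
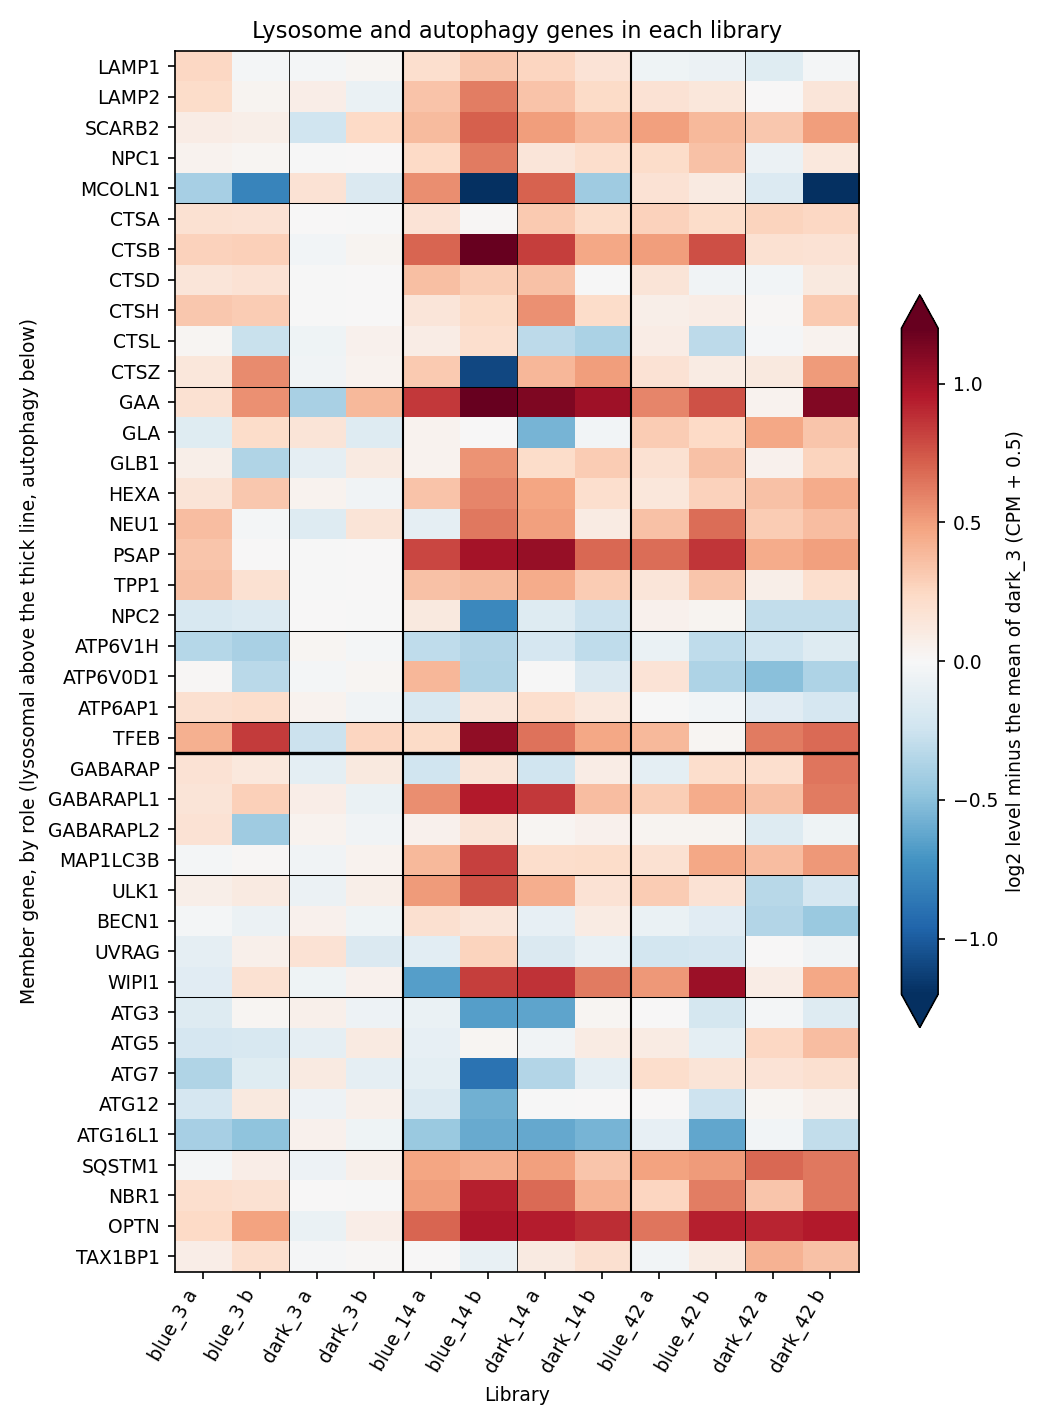
log2 level of each gene in each library minus its mean in dark_3, after adding 0.5 CPM, with genes grouped by role and colours cut at 1.2. SQSTM1, OPTN, NBR1, PSAP, CTSB and GABARAPL1 are above the dark_3 mean in all 14- and 42-irradiation libraries. TAX1BP1 is highest in dark_42 and lies between -0.085 and 0.097 in the blue_14 and blue_42 libraries. The MCOLN1 row varies from library to library.

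Other genes of the 2 pathways came from lists of 83 further lysosomal genes, 73 of them tested, and 54 further autophagy genes, 50 tested. In blue_42 against dark_42, 1 of the 73 was called, ATP6V1B2, a proton pump subunit that averaged 49.9 CPM in blue_42 and 29.3 CPM in dark_42 (0.77 ± 0.16, adjusted p = 0.0203). None of the 50 was called there, and none of either list after 3 or 14 irradiations. In dark_14 against dark_3, 5 lysosomal genes rose and 1 fell, and 7 autophagy genes rose, beside 8.11% of all tested genes that rose and 4.61% that fell. The largest were CTSS, a cathepsin, at 43.8 CPM in dark_14 and 5.62 CPM in dark_3, and MAP1LC3A, at 5.2 CPM in dark_14 and 1.45 CPM in dark_3. In dark_42 against dark_3, 7 lysosomal genes rose and 7 fell, and 6 autophagy genes rose and 1 fell, beside 9.47% and 8.26% of all tested genes. The lysosomal shares are close to those of all genes. Those that fell included the pump subunits ATP6V0E2 (19.6 CPM in dark_42 and 39.9 CPM in dark_3), ATP6V1B2 (29.3 CPM in dark_42 and 55.4 CPM in dark_3) and LAMTOR1, an anchor of mTORC1 signalling (66.1 CPM in dark_42 and 108 CPM in dark_3). In dark_42 against dark_14, 8 lysosomal and 2 autophagy genes fell, beside 5.23% of all tested genes, and none rose, beside 1.81%.

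In irradiated cells, blue_14 against blue_3 had 1 further lysosomal gene that rose, CTSC, and 1 that fell, ATP6V0E2, beside 3.62% and 2.58% of all tested genes. The autophagy genes that rose were VMP1, at 196 CPM in blue_14 and 111 CPM in blue_3, and the mitophagy receptor BNIP3L, at 63.1 CPM in blue_14 and 36.4 CPM in blue_3. In blue_42 against blue_3, BNIP3L (1.73-fold, adjusted p = 0.00054), BNIP3 (3.39-fold, adjusted p = 0.00364) and VMP1 (1.54-fold, adjusted p = 0.00326) rose, beside 4.4% of all tested genes. The BNIP3 fold rests on low levels, at means of 1.9 CPM in blue_3 and 6.66 CPM in blue_42. BNIP3L and BNIP3 are receptors for mitochondria, whose genes also respond to low oxygen. BNIP3L rose in dark_14 and dark_42 over dark_3 as well, 1.45-fold (adjusted p = 0.012) and 1.33-fold (adjusted p = 0.0337). ATP6V0E2 and CTSV fell in blue_42 against blue_3, and CTSC rose.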

How the data were processed

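The authors deposited whole-number read counts per gene, 1 column per library, not normalized; per the submitters' processing notes, reads went through STAR and featureCounts on GRCh38. The sources used here do not give versions, annotation, strand setting, trimming or any use of molecular identifiers. Per the labels' protocols, libraries were made with QuantSeq 3′ mRNA-Seq FWD chemistry from total RNA. Groups came from the sample titles. The 40 genes matched 48 rows by symbol: 8 further rows, 7 of NEU1 and 1 of ATG16L1, held 0 counts in every library and were not used.

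Counts were tested with edgeR 4.0.16 in R 4.3.3: filterByExpr at a minimum count of 10 (12878 genes of 22754 with a count), TMM scaling and a robust quasi-likelihood fit with a mean per group, with 6 residual degrees of freedom. All tests are two-sided. Each comparison's p-values received the Benjamini-Hochberg adjustment across every gene tested, and "called" means an adjusted p below 0.05. Standard errors come from the test statistic, and CPM uses TMM-scaled totals. The scripts were tested on simulated data. The 2 libraries of a group differed by more than counting noise (chi-square per degree of freedom 1.64 in dark_3 and 5.05 to 8.57 elsewhere).

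The genes, lists and tests were chosen with earlier results of these data known. Of the 13 comparisons, the 3 among irradiated groups were added after the data were seen. Genes called in any comparison are described, and so are 8 fixed genes: LAMP1, LAMP2, CTSD, TFEB, SQSTM1, MAP1LC3B, GABARAPL1 and WIPI1. To these come the 3 lysosomal and 3 autophagy genes with the largest blue against dark difference among those of at least 10 CPM. Most have values by library, in some or all groups. For TPP1, ATG5, ATG7 and ATG12 only a difference or fold is given. CTSA, MCOLN1, NPC2 and the averages of CTSB and ULK1 were picked after their values were seen. Gene positions came from GENCODE 29, promoters from RefSeq. Alternatives were RLE scaling, DESeq2 1.42.0, no filter or 5 CPM, non-robust estimation, a block for the replicate letter over all groups or within each irradiation number, only the libraries compared, and leaving out each library; leaving out all 14-irradiation libraries and a crossed block were added after the data were seen.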

Additional observations from a re-analysis of the deposited data

How the results depend on the processing

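The count of called genes moved by over 1.5 times in these fits. In blue_42 against dark_42 it was 1 with no filter on low counts and 1 without the 14-irradiation libraries, and in the averaged light effect 1 with no filter and 1 with DESeq2, each time CTSB. In dark_42 against dark_14 it was 1 with the replicate block, 0 with only the libraries compared and 0 with DESeq2. In blue_14 against blue_3 it was 8 with no filter and 2 with only the libraries compared. The cause was not tested.

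Leaving out each library in turn gave 0 to 0 called genes in blue_3 against dark_3 and in the light effect at 42 minus 3. The range was 0 to 1 in blue_14 against dark_14, blue_42 against dark_42, the light effect at 14 minus 3 and the average, and 0 to 2 in the light effect at 42 minus 14 and in blue_42 against blue_14. It was 2 to 11 in dark_14 against dark_3, 2 to 10 in dark_42 against dark_3, 0 to 4 in dark_42 against dark_14, 0 to 11 in blue_14 against blue_3 and 0 to 3 in blue_42 against blue_3. The group left with a single library is then assumed to vary like the others. GAA in blue_14 against dark_14 ran from -0.22 to 1.04 and was reversed, at -0.22, without blue_14 b. No other difference among those called, those largest between blue and dark, and the averages of CTSB and ULK1 was reversed. The remaining differences of single genes were not checked for reversal. Medians over the lysosomal or autophagy genes turned sign in some of these fits, as the autophagy median in blue_3 against dark_3 (-0.022 to 0.071) and in the average (-0.047 to 0.055).

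The replicate letters do not mark shared cultures in the labels, and same-lettered blue and dark libraries deviated together with r = 0.0925, -0.288 and 0.405 at 3, 14 and 42 irradiations, over 8688 genes. The replicate block gave 8 called genes in dark_14 against dark_3, where CTSH and TPP1 lost their call and GAA gained one (adjusted p = 0.0356), 9 in dark_42 against dark_3, 7 in blue_14 against blue_3, with GAA (adjusted p = 0.0343) and NBR1 (adjusted p = 0.0492) gained, and 3 in blue_42 against blue_3. It gave 0 in each light comparison, also when fitted within each irradiation number, and a crossed pairing at 14 gave 0. RLE scaling moved the median of all genes by at most 0.013 on the log2 scale.

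WIPI1, MCOLN1, GABARAP and GAA, with under 10 CPM on average, had the fewest counts behind their values.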
